A study of Mus musculus with 69 samples.

Results

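The glycogen metabolism genes followed here were 9 genes: Stbd1, Ppp1r3c, Ppp1r3b, Gys1, Gbe1, Pygb, Pygl, Pygm and Gyg1. They were found by matching Ensembl identifiers to gene symbols in the gene-level count tables of wild-type vascular smooth muscle cells (WT VSMC), EGFR-knockout VSMC (KO VSMC) and endothelial cells (EC), and all 9 were present among the 56953 genes of each table. Stbd1 and Ppp1r3c were chosen because their RNA had moved strongly in KO VSMC under HG+FFA and under ALL, so their values in those conditions are given as a description without a test. The other 7 were chosen for what they do.

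The study asked how stressors associated with obesity act on vascular cells, and whether the epidermal growth factor receptor (EGFR) is involved. Primary cells of male C57BL/6 mice were kept for 24 h without stressors (Control), with 20 mM glucose plus 100 µM free fatty acids (HG+FFA), with 30 nM angiotensin II plus 300 nM of a catecholamine (AII+NA), or with both pairs (ALL), and poly(A) RNA was sequenced. The labels call the catecholamine epinephrine, whereas the group name AII+NA and the methods give noradrenaline. The methods also give 100 µM for each of oleate and palmitate, where the labels state it for the fatty acids. Cultured VSMC came from the aorta, and KO VSMC from animals with floxed Egfr and a Cre driven by the SM22 promoter, a promoter active in smooth muscle. EC were cultured from hearts after selection of CD45-/CD31+ cells. Libraries that share their animal, passage and time form a numbered set: sets 1 to 4 were WT VSMC, 5 to 8 KO VSMC and 9 to 18 EC. In all, 69 libraries were used, 16 of WT VSMC, 15 of KO VSMC and 38 of EC. KO VSMC ALL of set 5, EC Control of set 10 and EC AII+NA of set 15 were not analysed here. One animal gave both EC sets 17 and 18, EC sets 9 and 10 shared their animals with WT VSMC sets 1 and 2, and EC sets 15 and 16 came from the animals of KO VSMC sets 7 and 6. The labels put all VSMC libraries in 1 batch and all EC libraries in another, without saying what a batch was, so cell type and batch cannot be told apart.

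Glycogen is the branched glucose polymer in which cells store sugar. Its synthesis is primed by glycogenin, extended by glycogen synthase and branched by the branching enzyme, while glycogen phosphorylase releases glucose units again. Subunits that target protein phosphatase 1 to glycogen favour the active form of the synthase and the inactive form of the phosphorylase, and starch-binding domain proteins link glycogen to membranes and to autophagy.

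Some libraries stood apart from their labels. Egfr RNA, the target of the knockout, lay between 246 and 430 FPM (fragments per 1000000 after scaling for library size) in the 4 WT VSMC sets as the mean over treatments, and at 0.959 to 1.84 FPM in KO VSMC sets 6, 7 and 8, but at 36.5 FPM in KO VSMC set 5, which is 10.3% of the WT mean. Set 5 also had the most Myh11 of the KO sets, 239 FPM. All EC are labelled WT, and Egfr was at 9.31 and 2.61 FPM in EC sets 15 and 16, from animals that also gave KO VSMC, and at 12.6 to 154 FPM in the other EC sets. EC sets 9, 11 and 13 held 18.1 to 42.4 FPM of the endothelial marker Pecam1, compared with 260 to 1590 FPM in the other 7 EC sets. In these 3 sets the 5 smooth muscle markers summed to between 805 and 3230 FPM (178 to 644 FPM in the other EC sets). Most of that sum was Acta2 alone, at 734, 3190 and 2820 FPM in sets 9, 11 and 13. The 4 fibroblast markers summed to between 3570 and 9930 FPM in these sets (608 to 4290 FPM in the others). Col1a1 had the largest median of the 4 over EC sets, 1690 FPM beside 2770 FPM for the sum. Pdgfra did not follow the sum, at 552, 236 and 215 FPM in sets 9, 11 and 13 and 61.2 to 273 FPM in the others. Acta2 was high in all VSMC sets, at least 598 FPM, whereas Tagln stayed at 2.58 to 10.6 FPM there. Of the Tagln exon bases, 66.7% are shared with genes on the opposite strand. In WT VSMC, Myh11 was at 3.92 to 10.8 FPM, Cnn1 at 9.95 to 41.8 FPM and Lmod1 at 29.6 to 54.7 FPM. The fibroblast markers summed to 4290 to 8880 FPM in WT VSMC sets, above the smooth muscle sum of 665 to 1210 FPM. Col1a1 alone had a median over WT sets of 4030 FPM, beside 6290 FPM for the fibroblast sum. In KO VSMC sets these sums were 1420 to 5820 FPM and 831 to 3140 FPM. Between 17166133 and 43240489 fragments were assigned to genes per library. Of the members, Pygm in EC was closest to the detection limit, with counts from 0 to 195. In bulk RNA, fewer cells of a type and less RNA per cell cannot be told apart, and this holds for every value that follows.

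In unstressed cells the order of the members was much alike in the 3 cell types when levels were set against exon length (FPM per kilobase of exon, FPKM). Gyg1, glycogenin, the protein primer of glycogen, was highest in each: 65.1 ± 30.0 FPKM in WT VSMC (SD, n = 4), 60.8 ± 23.3 FPKM in KO VSMC (SD, n = 4) and 49.3 ± 46.8 FPKM in EC (SD, n = 9). Pygb, the brain isoform of glycogen phosphorylase, came next with 19.3 ± 4.80, 26.1 ± 5.41 and 19.8 ± 5.13 FPKM. The ranges of Gyg1 and Pygb did not overlap in either VSMC genotype but did in EC. In WT VSMC, Stbd1 followed at 14.7 ± 5.79 FPKM and Ppp1r3c at 12.6 ± 2.32 FPKM, with ranges that overlapped each other. Pygl, the liver isoform of phosphorylase (5.19 ± 2.27 FPKM), Pygm, the muscle isoform (4.25 ± 1.17 FPKM), Gys1, the glycogen synthase of tissues other than liver (3.42 ± 0.837 FPKM), and Gbe1, the branching enzyme (1.96 ± 0.373 FPKM), formed a run in which each range overlapped the next. Ppp1r3b, a phosphatase-targeting subunit best known from liver, was lowest in both VSMC genotypes (1.17 ± 0.349 FPKM in WT), and its range did not reach that of Gbe1.

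In EC the bottom of the order was different. Ppp1r3b (1.28 ± 0.613 FPKM) stood above Pygl (0.836 ± 1.04 FPKM) and Pygm (0.335 ± 0.187 FPKM), and below Gyg1 every range overlapped that of its neighbour, as did Gyg1 and Pygb themselves. Because most neighbouring ranges overlapped, this order is a description of means.

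**Figure D1:**
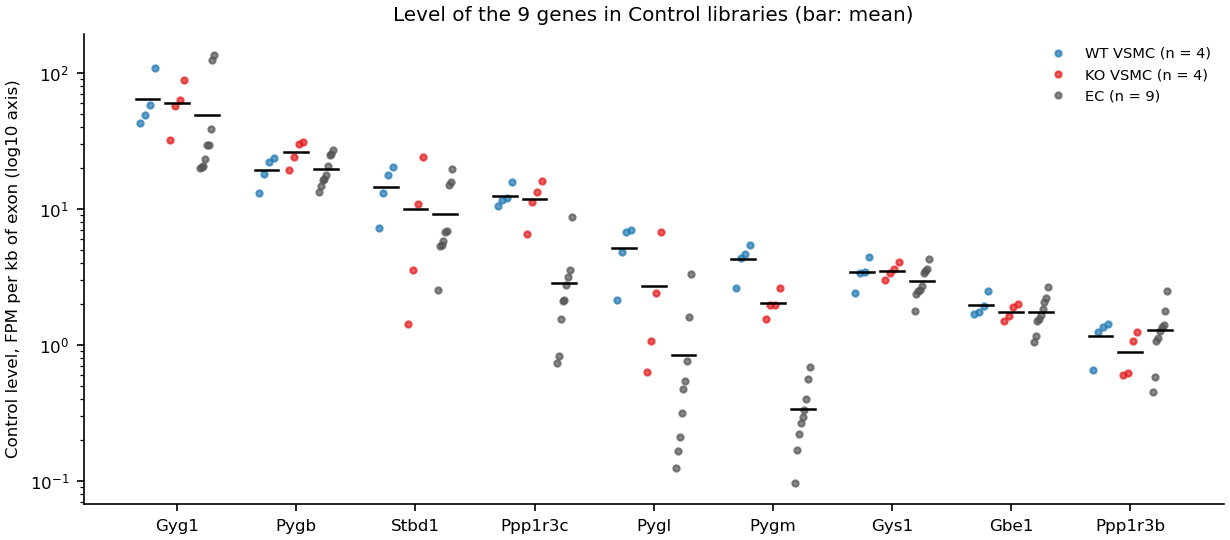
Levels of the 9 glycogen metabolism genes in unstressed WT VSMC, KO VSMC and EC, in FPM per kilobase of exon on a log10 axis. Each point is 1 library and each bar a mean; Gyg1 and Pygb lead in all 3 cell types, and Pygm is lowest in EC.

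Unstressed EC held less RNA of 3 members than unstressed WT VSMC. A gene was counted as changed when its false discovery rate (FDR, Benjamini-Hochberg over all genes tested) was under 0.05 both in DESeq2 and in the quasi-likelihood test of edgeR, and all FDR given in the text are edgeR's unless DESeq2 is named. By this rule 3 of the 9 members were lower in EC and 0 higher, while 5.28% of the genes tested were lower and 6.70% higher. All shares of genes printed beside counts of members, here and below, refer to this rule. Counts by an unadjusted p or by 1 tool alone are given without such a share, and nothing is read from them. Pygm was at 10.1, 20.7, 16.6 and 17.8 FPM in the 4 WT VSMC sets and between 0.370 and 2.63 FPM in EC (median 1.13 FPM), and the groups did not overlap. Its log2 fold change was −3.64 ± 0.405 (SE; FDR = 0.000431). Ppp1r3c, which encodes the phosphatase-targeting subunit PTG, ranged from 35.6 to 53.2 FPM in WT VSMC and from 2.46 to 29.4 FPM in EC (median 7.18 FPM), again without overlap (log2 fold change −2.12 ± 0.488, FDR = 0.0160). Pygl lay at 47.7, 33.8, 14.9 and 49.0 FPM in WT VSMC and between 0.863 and 23.3 FPM in EC (median 3.3 FPM), where the groups overlapped (−2.62 ± 0.713, FDR = 0.0315).

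These calls were not equally stable. Pygl lost its call when any 1 WT VSMC set was left out (highest FDR 0.0895), and Ppp1r3c lost it without WT set 3 (FDR = 0.0523). Without EC sets 9, 11 and 13 the log2 fold changes were −3.68 for Pygm, −2.85 for Ppp1r3c and −2.34 for Pygl. For Pygl, unstressed EC set 16 with 23.3 FPM and set 15 with 11.3 FPM were highest, and the other EC sets with a Control library did not exceed 5.31 FPM. Set 10, without a Control library here, read 10.9, 10.5 and 10.6 FPM under HG+FFA, AII+NA and ALL. The counting kept reads that map to several places, so fragments may be shared among the 3 phosphorylase genes, and the part of this in their levels was not tested.

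Among the unstressed KO VSMC, 0 of the 9 members differed from WT VSMC (background 0.00622% of genes), 1 had an unadjusted p under 0.05 in edgeR, and DESeq2 alone called 1. That gene was Pygm, at 7.47, 5.93, 7.50 and 9.97 FPM in KO sets 5 to 8 compared with 10.1 to 20.7 FPM in WT, with no overlap between the groups (log2 fold change −1.08 ± 0.261, edgeR FDR = 0.289, DESeq2 FDR = 0.0164). Stbd1 and Pygl spread widely between the KO sets: unstressed Stbd1 was 24.1, 3.20, 7.97 and 54.2 FPM and Pygl 47.4, 4.41, 7.47 and 16.8 FPM in sets 5 to 8. For Stbd1 the log2 difference from WT was −0.54 ± 0.734, for Pygl −0.94 ± 0.686, so both standard errors left room for differences in either direction.

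Stbd1 encodes starch-binding domain-containing protein 1, which binds glycogen and anchors it to membranes. The gene (ENSMUSG00000047963) lies at chr5:92750891-92754438 on the plus strand of GRCm39. Ppp1r3c (ENSMUSG00000067279) lies at chr19:36708523-36714070 on the minus strand, and the related Ppp1r3b (ENSMUSG00000046794) at chr8:35842874-35856680 on the plus strand. The 250 bases before the annotated start of each are shown because Stbd1 and Ppp1r3c changed in opposite directions while Ppp1r3b, a second phosphatase-targeting subunit, passed the test in no comparison. Capitals mark CACGTG, the palindromic E-box. The intervals on GRCm39 are chr5:92750641-92750890 for Stbd1 (plus strand), chr19:36714071-36714320 for Ppp1r3c (minus strand) and chr8:35842624-35842873 for Ppp1r3b (plus strand), each printed 5′ to 3′ on the strand of its gene.
Stbd1: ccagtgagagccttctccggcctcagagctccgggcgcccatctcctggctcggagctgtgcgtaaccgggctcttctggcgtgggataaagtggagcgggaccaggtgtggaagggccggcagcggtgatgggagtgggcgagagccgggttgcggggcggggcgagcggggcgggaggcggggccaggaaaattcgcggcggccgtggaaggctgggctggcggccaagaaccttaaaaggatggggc
Ppp1r3c: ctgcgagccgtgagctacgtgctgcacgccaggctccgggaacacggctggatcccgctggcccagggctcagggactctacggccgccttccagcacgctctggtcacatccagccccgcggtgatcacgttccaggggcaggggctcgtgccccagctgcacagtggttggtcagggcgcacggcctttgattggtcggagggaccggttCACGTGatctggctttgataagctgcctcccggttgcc
Ppp1r3b: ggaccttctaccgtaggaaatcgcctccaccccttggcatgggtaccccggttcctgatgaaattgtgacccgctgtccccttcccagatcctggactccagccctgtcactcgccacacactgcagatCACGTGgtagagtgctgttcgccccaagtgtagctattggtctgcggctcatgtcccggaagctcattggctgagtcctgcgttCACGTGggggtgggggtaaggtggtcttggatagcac
Motifs were searched on both strands from 250 bases before to 50 after each start. CACGTG was found in 2 of the 9 members, at −38 in Ppp1r3c and at −121 and −37 in Ppp1r3b, and in 7.81% of 21770 promoters of the same length. Its shorter form ACGTG, which overlaps it, occurred in 6 of 9 members and 20.7% of promoters. AGGTCA, the half-site of nuclear receptors, occurred in 1 of 9 (Pygl, at −84 on the opposite strand) and in 15.1% of promoters, TGACGTCA in 0 of 9 and 2.44%, and a direct repeat of AGGTCA with 1 base between in 0 of 9 and 0.0459%. These matches describe letters in the sequence and say nothing about binding.

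Stbd1 RNA was higher with glucose and fatty acids in WT VSMC, in every set. Under Control it was 16.1, 39.7, 29.3 and 45.6 FPM in sets 1 to 4, and under ALL 94.1, 97.0, 68.5 and 73.4 FPM. The ALL values lay above all Control values, and the rise was 2.64-fold (log2 fold change 1.40 ± 0.274, FDR = 0.00617). In this comparison 2 of 9 members rose and 2 fell, where 3.86% of the genes tested rose and 3.48% fell. Stbd1 and Ppp1r3c, chosen for their change in KO VSMC, are among them, beside Gyg1 and Pygl. Under HG+FFA Stbd1 was 93.3, 66.0, 55.9 and 63.7 FPM, also above all Control values, with a log2 fold change of 1.16 ± 0.275 that edgeR did not pass (FDR = 0.0813) and DESeq2 did (FDR = 0.0444). Set 1, lowest under Control, moved 5.78-fold and the other sets less, and without set 1 the log2 fold change under HG+FFA was 0.71 (FDR = 0.0596). Under AII+NA Stbd1 stayed at 14.2, 31.7, 33.1 and 32.7 FPM, lower than Control in 3 of 4 sets by amounts within the error (log2 fold change −0.20 ± 0.274).

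In KO VSMC, where Stbd1 was picked for its change, the 4 sets read 24.1, 3.20, 7.97 and 54.2 FPM under Control and 61.2, 19.3, 79.0 and 86.4 FPM under HG+FFA. Under ALL the 3 sets 6 to 8 read 20.6, 85.4 and 96.2 FPM. Each set was higher than its own Control, although Control and stressed values overlapped between sets. The log2 fold change was 1.90 ± 0.350 under HG+FFA and 2.15 ± 0.380 under ALL. Leaving out 1 set at a time gave 1.45 to 2.44 under HG+FFA and 1.64 to 2.85 under ALL. Of the 9 members 2, the pair the list was chosen on, met the thresholds in each of these comparisons, beside 0.433% of genes under HG+FFA and 0.399% under ALL; since the choice used these contrasts, nothing is read from that count.

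**Figure D2:**
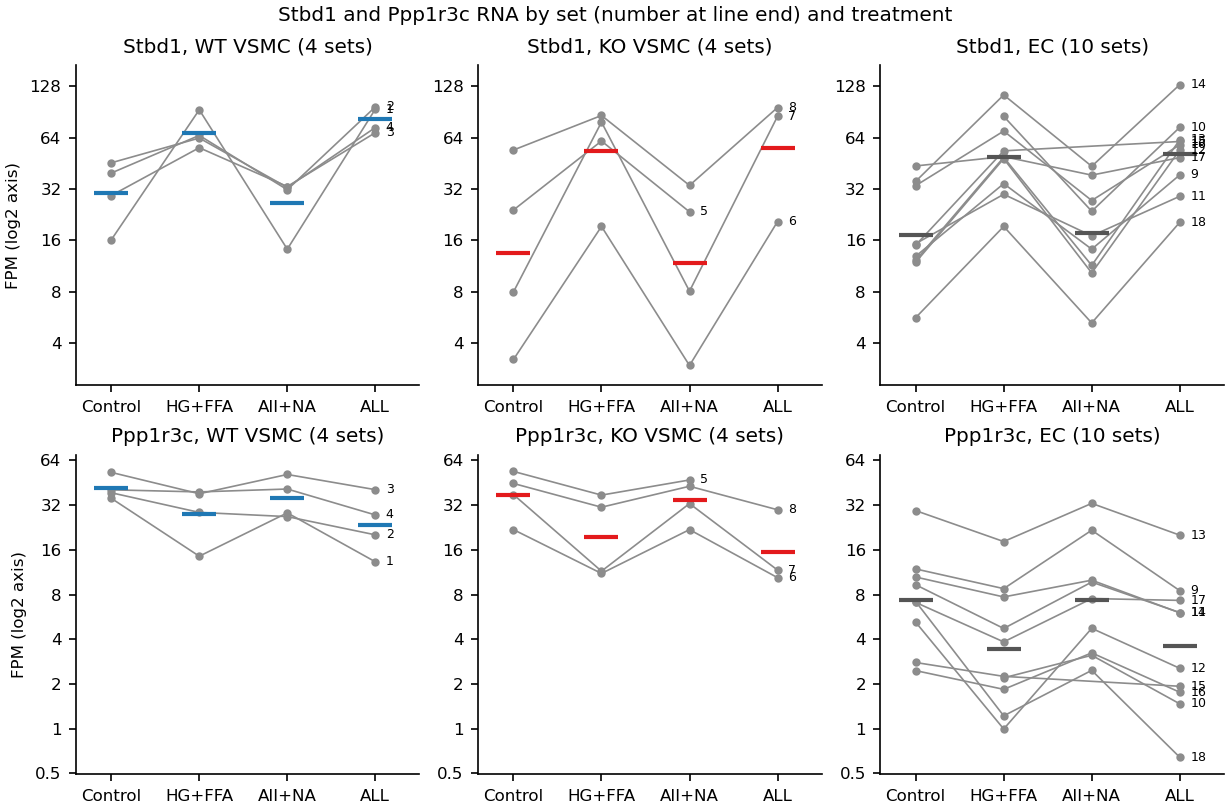
Stbd1 and Ppp1r3c RNA (FPM, log axis) in the 4 treatment groups of WT VSMC, KO VSMC and EC. Thin lines join the libraries of 1 set and coloured bars are geometric means. By these means Stbd1 lies higher and Ppp1r3c lower under HG+FFA and ALL, and both stay near Control under AII+NA. Single sets moved under AII+NA, such as Ppp1r3c in EC sets, at 0.353 to 1.82 times Control.

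EC gave the same direction for Stbd1 with the smallest errors. Control ranged from 5.63 to 43.7 FPM (median 15 FPM, n = 9) and HG+FFA from 19.3 to 114 FPM (median 49.4 FPM, n = 10), and ALL from 20.4 to 131 FPM (median 56.2 FPM, n = 10). The group ranges overlapped, but Stbd1 rose in 9 of 9 sets that had a Control library, both under HG+FFA (2.73-fold, log2 fold change 1.45 ± 0.166, FDR = 7.39e-07) and under ALL (2.87-fold, 1.52 ± 0.166, FDR = 3.07e-07). Set 17 moved least, from 43.7 FPM to 49.6 FPM under HG+FFA and to 48.9 FPM under ALL, although set 18 of the same animal moved from 5.63 to 19.3 and 20.4 FPM. Within EC sets 9, 11 and 13 the rise was 1.95- to 4.01-fold under HG+FFA, and within the other 6 sets 1.14- to 4.03-fold, so the sets with little Pecam1 lay inside the range of the rest. Without these 3 sets the log2 fold change under ALL was 1.47 (FDR = 0.000134). Under AII+NA Stbd1 was between 5.24 and 43.5 FPM (median 17 FPM), with a log2 fold change of −0.02 ± 0.169.

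**Figure D3:**
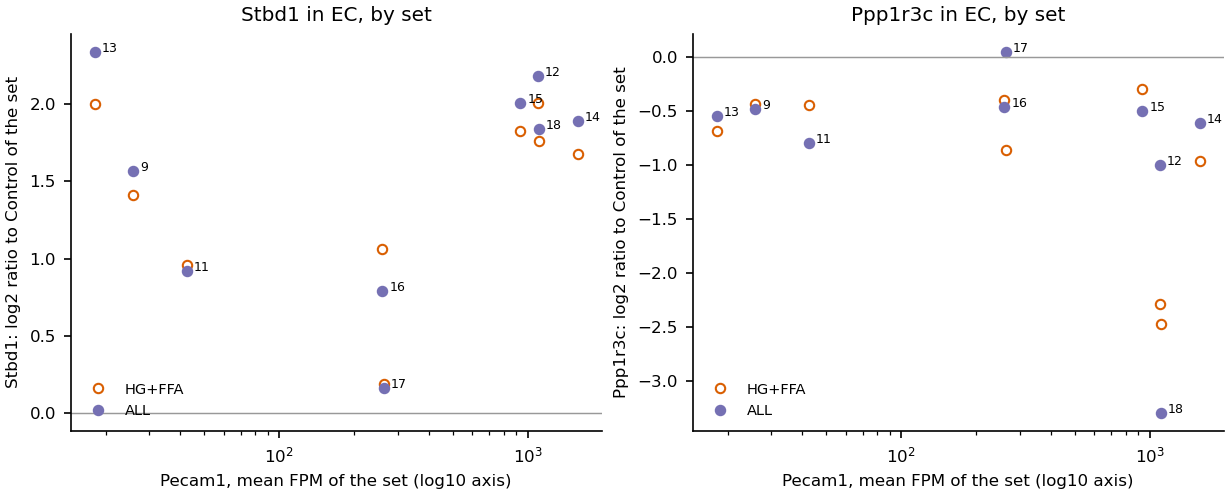
Log2 ratio of Stbd1 and Ppp1r3c to Control in each EC set, against the set's mean Pecam1 level (FPM, log axis). Open symbols are HG+FFA, filled symbols ALL, and numbers name the sets; the 3 sets at 18.1 to 42.4 FPM Pecam1 have ratios within the span of the others, except for Stbd1 in set 13 under ALL, the highest at 2.34.

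Ppp1r3c moved the other way. In WT VSMC it was 35.6, 38.8, 53.2 and 40.6 FPM under Control and 13.3, 20.2, 40.7 and 27.5 FPM under ALL in sets 1 to 4. It fell in 4 of 4 sets, to 0.564 of Control (log2 fold change −0.82 ± 0.163, FDR = 0.00648), and passed the test with each set left out in turn (−0.98 to −0.62). The ALL value of set 3 lay within the Control range and the other 3 below it. Under HG+FFA it was 14.5, 28.6, 38.2 and 39.3 FPM, a log2 fold change of −0.56 ± 0.162 (FDR = 0.161) that only DESeq2 passed (FDR = 0.0423), and without set 1 it was −0.32 (FDR = 0.466). With AII+NA alone, Ppp1r3c was 28.4, 26.8, 51.5 and 41.1 FPM (−0.22 ± 0.160).

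In KO VSMC, where this gene too was picked for its change, sets 5 to 8 read 54, 21.9, 37.7 and 44.8 FPM under Control and 37.4, 11.1, 11.5 and 31 FPM under HG+FFA. Under ALL, sets 6 to 8 read 10.4, 11.7 and 29.8 FPM. Every set lay below its own Control, with log2 fold changes of −0.92 ± 0.178 and −1.07 ± 0.201. Set 7 contributed most, and without it the values were −0.67 and −0.82.

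EC had little Ppp1r3c to begin with, and still less of it with glucose and fatty acids. It ranged from 2.46 to 29.4 FPM under Control (median 7.18 FPM), from 0.995 to 18.2 FPM under HG+FFA (median 3.04 FPM) and from 0.642 to 20.1 FPM under ALL (median 4.29 FPM). Within sets it was lower in 9 of 9 under HG+FFA (log2 fold change −0.98 ± 0.219, FDR = 0.00729) and in 8 of 9 under ALL (−0.88 ± 0.217, FDR = 0.0177), set 17 being the exception with 7.08 FPM under Control and 7.31 FPM under ALL. Set 18 fell furthest, from 7.18 to 1.22 and 0.642 FPM, but it was also lower under AII+NA, at 2.47 FPM. Under AII+NA the Ppp1r3c log2 fold change in EC was −0.04 ± 0.219 (FDR = 0.981), with set ratios from 0.353 to 1.82 times Control. Without set 18 the log2 fold change was −0.73 (FDR = 0.00983) under HG+FFA and −0.58 (FDR = 0.0540) under ALL, where the call was lost. With the animal in place of the set as the block, neither call held (FDR = 0.130 and 0.240). Without EC sets 9, 11 and 13 the values were −1.22 (FDR = 0.0358) and −1.03 (FDR = 0.0890), while the summed fibroblast markers had a mean log2 ratio to Control of −0.24 under HG+FFA and −0.17 under ALL in EC, whose part in the fall was not tested.

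Ppp1r3b, the second phosphatase-targeting subunit among the members, passed the test under no stressor. It averaged 9.22 ± 2.76 FPM under Control and 9.56 ± 2.19 FPM under ALL in WT VSMC (SD, n = 4), and 10.1 ± 4.83 FPM (n = 9) and 9.36 ± 3.39 FPM (n = 10) in EC. Its log2 fold change under ALL was 0.08 ± 0.139 in WT VSMC and −0.13 ± 0.124 in EC, and under AII+NA −0.15 ± 0.140 and −0.25 ± 0.129 (FDR = 0.787 and 0.719). Of the wider family, Ppp1r3d, Ppp1r3e and Ppp1r3f were also measured well enough to test, and none was called under any stressor.

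Gyg1, the glycogenin that starts each glycogen particle, rose in WT VSMC with the combined stressors. It was 323, 174, 127 and 147 FPM under Control and 385, 410, 228 and 516 FPM under ALL, 4 of 4 sets higher and 2.06-fold in all (log2 fold change 1.04 ± 0.226, FDR = 0.0105). The groups overlapped because set 1 was already high in Control. Under AII+NA the sets read 462, 305, 183 and 485 FPM, again higher in 4 of 4, with a log2 fold change of 0.90 ± 0.225 that neither tool passed (FDR = 0.168). No member was called in WT VSMC under AII+NA (background 0.0532%), where 3 had an unadjusted p under 0.05 and DESeq2 called 0. Under HG+FFA, Gyg1 was 316, 167, 205 and 177 FPM, and here too 0 members met both tools (background 0.521%), 3 had an unadjusted p under 0.05 in edgeR and DESeq2 called 2, Stbd1 and Ppp1r3c. The Gyg1 call under ALL was lost without set 2 (0.97, FDR = 0.0551), and without set 4 the log2 fold change was 0.80 under ALL (FDR = 0.0446) and 0.64 under AII+NA.

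The summed smooth muscle markers were also higher in most of these WT VSMC libraries. Most of the sum was Acta2, with a median over WT sets of 903 FPM beside 975.5 FPM for the sum. The sum of Acta2, Tagln, Cnn1, Myh11 and Lmod1 rose 1.46-, 1.90-, 1.78- and 5.97-fold in sets 1 to 4 under AII+NA, beside 1.43-, 1.76-, 1.44- and 3.31-fold for Gyg1. Under ALL the markers stood at 1.27, 2.71, 0.910 and 5.17 times Control and Gyg1 at 1.19, 2.36, 1.79 and 3.52 times. Gyg1 was thus higher and the marker sum was not in set 3 under ALL. The same held under HG+FFA in set 3 (Gyg1 1.61 times and markers 0.625 times Control) and set 4 (1.21 and 0.960 times), while in sets 1 and 2 Gyg1 was at 0.981 and 0.960 and the markers at 0.996 and 0.949 times Control. The sum of the 4 cardiomyocyte markers also had a mean log2 ratio of 0.97 under AII+NA and 0.94 under ALL. Almost all of it was Tnnt2, with a median over WT sets of 26.3 FPM beside 26.5 FPM for the sum. Myh6 was at no more than 0.008 FPM, Actn2 at no more than 0.103 FPM and Ryr2 at no more than 0.2 FPM. The 6 endothelial markers had a mean log2 ratio of −0.75 under ALL, from sums of 0.972 to 47.7 FPM. The part of these shifts in the Gyg1 values was not tested.

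KO VSMC showed smaller differences for Gyg1. Its values were 170, 96.0, 189 and 264 FPM under Control and 241, 115, 228 and 288 FPM under AII+NA in sets 5 to 8, a log2 fold change of 0.29 ± 0.0962 (FDR = 0.509) with 4 of 4 sets higher. Under AII+NA 0 members were called in KO VSMC (0% of all genes), 1 had an unadjusted p under 0.05 in edgeR, and DESeq2 called 0. The smooth muscle marker sum in KO VSMC had a mean log2 ratio of 0.19 under AII+NA. The difference between genotypes in the Gyg1 response, WT minus KO, was 0.62 ± 0.264 under AII+NA (FDR = 0.404) and 0.84 ± 0.279 under ALL (FDR = 0.439), so a genotype difference was not established.

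In EC the Gyg1 levels fell into widely separate ranges before any treatment: 373 and 403 FPM in sets 11 and 13, and 58.9 to 114 FPM in the other 7 sets with a Control library, set 9 among them with 68.9 FPM. Under ALL Gyg1 was higher than Control in 8 of 9 sets by a small amount, 1.21-fold (log2 fold change 0.27 ± 0.0757, FDR = 0.0403). Set 11 was the exception, with 289 FPM under ALL. The call is fragile: it was lost without set 18 (FDR = 0.110) and without sets 15 and 16 (FDR = 0.0849), and kept without sets 9, 11 and 13 (0.30, FDR = 0.0454). Under AII+NA, 0 members were called in EC (0% of all genes), 0 had an unadjusted p under 0.05 and DESeq2 called 0. The Gyg1 response to AII+NA was −0.82 ± 0.201 lower on the log2 scale in EC than in WT VSMC, which edgeR did not pass (FDR = 0.132) and DESeq2 did (FDR = 0.0175). Under ALL the difference was −0.77 ± 0.199 (FDR = 0.0668, DESeq2 FDR = 0.0126). Both tools passed it without WT set 1 or without WT set 3, and neither without WT set 4. For Gyg1, 5.2% of the exon bases are shared with Hltf on the opposite strand, and the counting is not stated to have used strand.

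**Figure D4:**
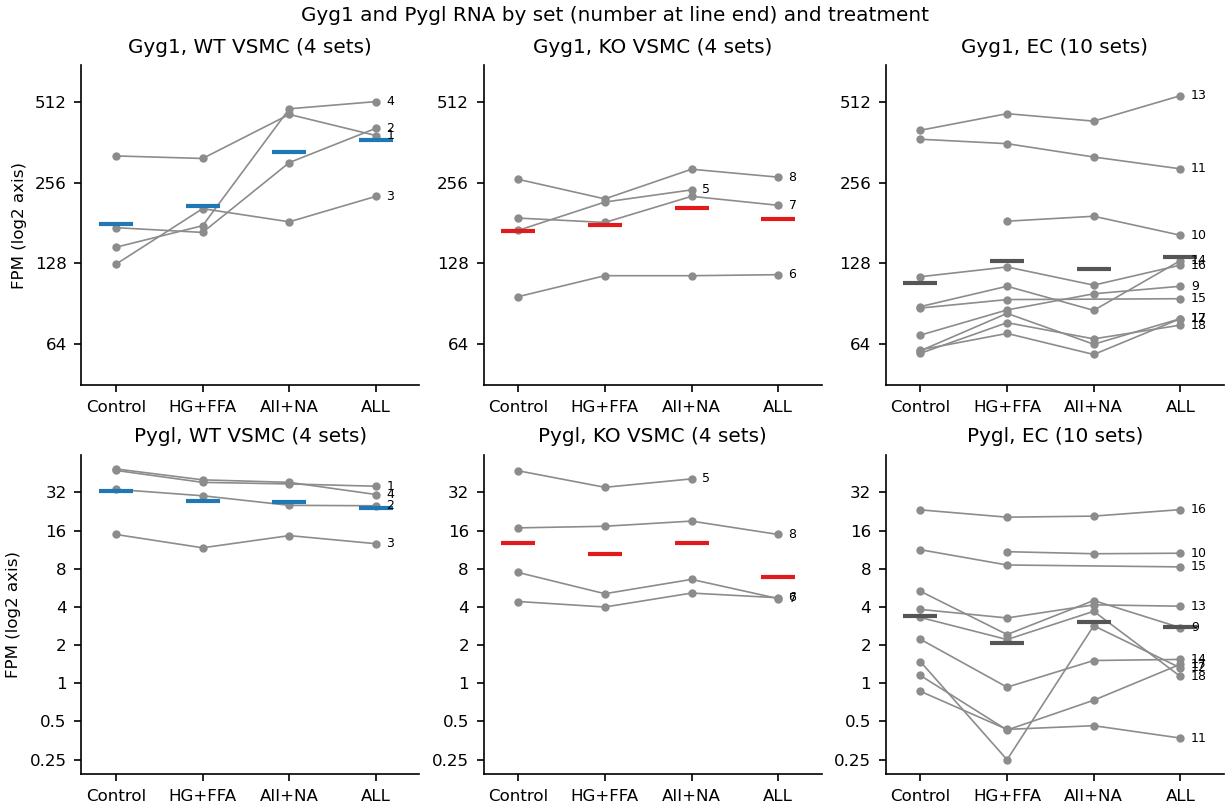
Gyg1 and Pygl RNA (FPM, log axis) under the 4 conditions in WT VSMC, KO VSMC and EC, drawn as thin lines per set with geometric means as coloured bars. In WT VSMC Gyg1 is higher in 4 of 4 sets under AII+NA and ALL and Pygl lower in 4 of 4; in EC, sets 11 and 13 stand well above the rest for Gyg1.

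Gys1 and Gbe1, which extend and branch the polymer, passed the test in no stressor comparison. Gys1 averaged 26.8 ± 6.58 FPM under Control and 30.2 ± 5.44 FPM under ALL in WT VSMC (SD, n = 4), a log2 fold change of 0.18 ± 0.0722 with 4 of 4 sets higher (FDR = 0.142), and 13% of its exon bases are shared with genes on the opposite strand. In EC its log2 fold change under ALL was 0.14 ± 0.0831. For Gbe1 the log2 fold change under ALL was 0.46 ± 0.149 in EC, where edgeR did not pass it (FDR = 0.0862) and DESeq2 did (FDR = 0.0372). Gbe1 in EC was higher under ALL than under Control in 5 of 9 sets only, with set 17 moving from 5.71 to 17.4 FPM and set 13 from 6.46 to 16.5 FPM. In WT VSMC all 4 sets were higher under ALL, with 13.8, 10.7, 9.34 and 9.54 FPM under Control and 18.4, 14, 12.7 and 9.77 FPM under ALL, by an amount that did not pass.

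Of the phosphorylases, Pygl fell in WT VSMC. It was 47.7, 33.8, 14.9 and 49.0 FPM under Control and 35.8, 25.1, 12.6 and 30.8 FPM under ALL, lower in 4 of 4 sets, at 0.737 of Control (log2 fold change −0.44 ± 0.0869, FDR = 0.00636). The change is smaller than the spread between sets, in which set 3 stood lowest throughout, and its size was under the 0.64 that the study set for a differentially expressed gene. It was lost without set 4 (−0.36, FDR = 0.0998). Under HG+FFA and AII+NA Pygl was also lower in the fit, by log2 fold changes of −0.28 ± 0.0860 (FDR = 0.201) and −0.29 ± 0.0864 (FDR = 0.252). The fall was not particular to WT cells. In KO VSMC Pygl was at −0.275 ± 0.124 under HG+FFA (FDR = 0.388) and −0.301 ± 0.143 under ALL (FDR = 0.477), neither called. WT minus KO was −0.135 ± 0.160 under ALL (FDR = 0.864). In EC, Pygl was lower in 9 of 9 sets under HG+FFA, from a median of 3.3 to 2.31 FPM, with a log2 fold change of −0.74 ± 0.227 that edgeR did not pass (FDR = 0.0636) and DESeq2 did (FDR = 0.0177), and lower in 6 of 9 under ALL (−0.43 ± 0.226, FDR = 0.342).

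Pygb, the most abundant phosphorylase RNA in all 3 cell types, changed little. In EC it ranged from 137 to 278 FPM under Control (median 180 FPM) and from 105 to 262 FPM under ALL (median 156 FPM), and fell in 8 of 9 sets, to 0.850 of Control (log2 fold change −0.23 ± 0.0674, FDR = 0.0477). Under HG+FFA it was at −0.23 ± 0.0676 (FDR = 0.0531, DESeq2 FDR = 0.0197). The EC call was lost without set 18 (FDR = 0.117) and without sets 9, 11 and 13 (FDR = 0.0692). In WT VSMC the log2 fold change under ALL was −0.07 ± 0.0853. Pygm remained low in EC under every treatment, with counts of 0 in the ALL library of set 18, which allows up to 0.108 FPM (counting error only), and it passed in no stressor comparison.

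In EC, then, 1 of 9 members rose and 1 fell under HG+FFA, beside 1.63% and 1.88% of genes, and 2 rose and 2 fell under ALL, beside 1.13% and 2.03%. Under HG+FFA these were Stbd1 and Ppp1r3c, and under ALL the same genes with Gyg1 and Pygb. Stbd1 and Ppp1r3c were chosen for their change under these stressors in KO VSMC, so nothing is read from their part in these counts. The HG+FFA and ALL comparisons share their Control libraries in every cell type and are not independent of each other. Over the 9 members the median log2 fold change under ALL was 0.08 for WT VSMC, −0.11 for KO VSMC and −0.13 for EC, where that of all genes tested was −0.01, −0.00177 and −0.01.

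**Figure D5:**
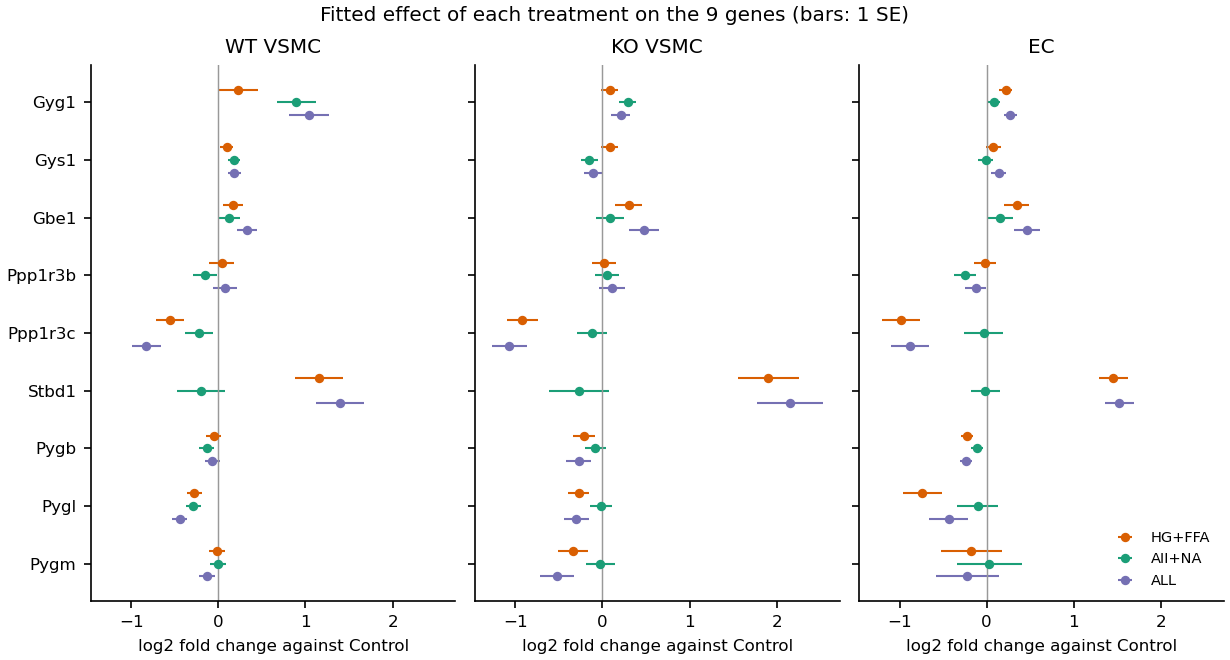
Log2 fold changes against Control of the 9 members under HG+FFA, AII+NA and ALL in the 3 cell types, with bars of 1 SE from edgeR. Stbd1 lies furthest to the right and Ppp1r3c to the left under HG+FFA and ALL in each cell type, whereas under AII+NA Gyg1 in WT VSMC is furthest from 0, at 0.90.

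Adding angiotensin II and the catecholamine to glucose and fatty acids (ALL against HG+FFA) changed 0 of 9 members in WT VSMC (background 0.0414%; 1 with an unadjusted p under 0.05 in edgeR, 0 by DESeq2), 0 in KO VSMC (0%) and 0 in EC (0%), where 0 had an unadjusted p under 0.05 in edgeR and DESeq2 called 0 in both. In WT VSMC Gyg1 was furthest, at 0.81 ± 0.225 (FDR = 0.163), higher in 4 of 4 sets. For Stbd1 the difference was 0.24 ± 0.265 in WT VSMC and 0.07 ± 0.152 in EC. The departure from additivity, ALL minus the sum of both single effects on the log2 scale, was 0.44 ± 0.381 for Stbd1 and −0.08 ± 0.314 for Gyg1 in WT VSMC, and 0 of 9 members passed in any cell type (0 with an unadjusted p under 0.05 in edgeR, 0 by DESeq2), as did 0 of all genes.

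The responses of Stbd1 and Ppp1r3c were also set side by side between cell types and genotypes. For Stbd1, EC minus WT VSMC was 0.28 ± 0.326 under HG+FFA and 0.13 ± 0.324 under ALL, and for Ppp1r3c −0.41 ± 0.323 and −0.02 ± 0.306, none of which passed. WT minus KO was −0.72 ± 0.485 and −0.73 ± 0.511 for Stbd1 and 0.36 ± 0.260 and 0.25 ± 0.277 for Ppp1r3c. The genotype values rest on the KO changes for which both genes were chosen, so they are descriptions without a test. Of all genes tested, 0.0109% differed between genotypes under ALL, 0.496% between cell types under ALL and 0.0465% under AII+NA, and 0 members did so, counting the other 7 only between genotypes under HG+FFA and ALL. In edgeR, 2 members had an unadjusted p under 0.05 between genotypes under AII+NA, Gyg1 and Gys1, and the same 2 under ALL, with 0 called by DESeq2. Between cell types 1 member, Gyg1, had an unadjusted p under 0.05 and a DESeq2 call under AII+NA and again under ALL, while under HG+FFA there were 0 of either kind in both contrasts, with 0% of all genes called.

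The wider glycogen list held 22 further genes, of which 19 were tested: the phosphoglucomutases and Ugp2 that supply UDP-glucose, phosphorylase kinase subunits, the other phosphatase-targeting subunits, laforin, malin and the synthase kinases, and genes of the lysosomal route. None of the 19 passed both tools in any comparison of a stressor with Control, for which the shares of all genes are given above, and DESeq2 called 0 in each. An unadjusted p under 0.05 in edgeR was reached in WT VSMC by 0 under HG+FFA, 2 under AII+NA and 1 under ALL, in KO VSMC by 0, 1 and 0, and in EC by 0, 3 and 1. Between unstressed EC and WT VSMC, 2 of the 19 were higher and 2 lower in EC, beside the 6.70% and 5.28% of all genes. Phka1 (log2 fold change 0.66, FDR = 0.0174) and Phkb (0.68, FDR = 0.0409), subunits of phosphorylase kinase, were higher in EC. Ppp1r3d, another phosphatase-targeting subunit (−1.19, FDR = 0.0260), and Gaa, the lysosomal enzyme that degrades glycogen (−1.21, FDR = 0.0299), were lower.

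Over all 69 libraries, each taken relative to the mean of its set, the log2 levels of Stbd1 and Ppp1r3c had a Pearson r of −0.81. The libraries share sets and treatments, so this describes the pattern and is no test. Among 15880 genes tested in all 3 cell types, those with the pattern most like Stbd1 were Scarb2, a lysosomal membrane protein (r = 0.926), Ech1, an enzyme of fatty acid oxidation (0.910), Slc43a3, a purine base transporter (0.897), Pdk4, the kinase that inactivates pyruvate dehydrogenase (0.889), and Cpt1a, which admits fatty acids to mitochondria (0.888). For Ppp1r3c they were Vegfd, a lymphangiogenic growth factor (0.858), Scara5, a ferritin receptor (0.855), Aldh6a1, an enzyme of valine breakdown (0.853), Mylip, a ubiquitin ligase for the LDL receptor (0.846), and Dkk3 (0.841). EC make up 38 of the 69 libraries. In WT VSMC Vegfd did not follow Ppp1r3c, with log2 fold changes of −0.04 ± 0.120 under HG+FFA and 0.12 ± 0.120 under ALL. Scara5, Aldh6a1, Mylip and Dkk3 were called lower there under ALL, beside 3.48% of all genes. They were picked for following Ppp1r3c in these same libraries, so nothing is read from those calls. In KO VSMC under ALL, Mylip was called lower (−0.94 ± 0.152), but Scara5, Aldh6a1 and Dkk3 were not called (FDR = 0.123, 0.0897 and 0.217).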

How the data were processed

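The data are gene-level counts of poly(A) RNA sequencing of primary mouse vascular cells. The authors aligned paired-end reads to mm39 with HISAT2 2.1.0 and counted fragments on exons with featureCounts, keeping reads that map to several places, and the deposited values are raw counts, 1 table per cell type. Identifiers absent from the annotation used here (GENCODE on GRCm39) took 0.0241% of the counts.

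From the counts, each cell type was fitted by itself with edgeR 4.0.16 (TMM, filterByExpr, quasi-likelihood test) and DESeq2 1.42.0 in R 4.3.3, with the set as a block, and p-values were adjusted over all genes tested (Benjamini-Hochberg). A gene was called when its FDR was under 0.05 in both. The study's further thresholds, an absolute log2 fold change of at least 0.64 and a mean of at least 3 FPM, were an alternative. Genotypes and cell types were compared in joint models with sets nested, and unstressed levels without a block. FPM used TMM over all 69 libraries; ratios within sets and correlations used a pseudocount of 0.1 FPM. DESeq2 log2 fold changes were not shrunken. The fits were tested on simulated counts.

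A set marks cells of the same animal, passage and time. Libraries of a set deviated together from their group means, with a lowest correlation of 0.494 for WT VSMC, 0.642 for KO VSMC and 0.609 for EC, and means of 0.797, 0.780 and 0.819. Libraries of different sets had means of -0.269, -0.280 and -0.0913. Subtracting the group mean by itself pushes correlations between sets below 0, so these negative means are no independent contrast. Among libraries of the same cell type and treatment, no 2 agreed within sampling noise. Libraries of different treatments were not compared in this way. EC sets 17 and 18 share an animal and were treated as separate sets, with the animal as the block as an alternative. Further alternatives were single tools, DESeq2 size factors, no filter on low counts, no block, the compared groups alone, and leaving out sets. Leaving out EC sets 9, 11 and 13 was chosen after seeing the data.

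The members and gene lists were chosen with earlier results of these data known. All 9 members are named in every comparison, genes of the wider list where called (1 item of that list is not reported here), and for Stbd1 and Ppp1r3c the 5 genes of highest Pearson r. Promoter sequences come from GRCm39 at GENCODE starts. Ages of the animals are not given in the sources used here.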

Additional observations from a re-analysis of the deposited data

Results flagged for a closer look

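Each member was checked in every group of 4 to 10 libraries for a lowest or highest library far from the others, by the gap to its nearest neighbour over the range of the group. Of 99 groups, 2 had such a library, and chance flags about 1 in 20 groups. Both were the AII+NA library of WT VSMC set 1. Stbd1 was at 14.2 FPM there, while the other 3 sets lay between 31.7 and 33.1 FPM (gap over range 0.948, above 0.829 for 4 libraries). Pygm was at 8.15 FPM, while the other 3 sets lay between 18.5 and 21.1 FPM (0.864). Set 1 was also the lowest set for both genes under Control, with 16.1 and 10.1 FPM.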

How the results depend on the processing

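No called difference reversed its direction under any alternative that was run, whereas differences near 0 that were never called changed sign for some members, such as Ppp1r3b in WT VSMC under ALL (-0.05 to 0.27). Of the recomputed counts of called members, 241 stayed within 1.5 times the reported count and 30 moved. Of the recomputed fold changes of called members, 140 kept their call and 50 lost it. The largest dependence was on the pairing: without the replicate block, 0 members were called in WT VSMC under ALL, in KO VSMC under HG+FFA or ALL, or in EC under HG+FFA or ALL, and over all genes 0 were called in any VSMC stressor comparison and 2 in EC under each of HG+FFA and ALL. The smallest FDR of a member without the block was 0.292, for WT VSMC under ALL. DESeq2 alone called 2 members in WT VSMC under HG+FFA, 4 in EC under HG+FFA, 1 in unstressed KO VSMC, and 1 (Gyg1) in the cell type difference under AII+NA and under ALL. No share of all genes is given for calls by DESeq2 alone. Without a filter on low counts that Gyg1 difference was also 1 call each. With only the compared groups in the fit, 0 members were called in KO VSMC under HG+FFA and 1 under ALL, and 1 in EC under ALL. With the animal as the block, 1 member was called in EC under HG+FFA and 1 under ALL. The 4 calls in EC under ALL fell to 2 with the study's size thresholds, 1 without set 18, 2 without sets 15 and 16, and 2 without sets 9, 11 and 13. Leaving out 1 VSMC set at a time gave 0 to 2 calls in KO VSMC under HG+FFA and under ALL (0 without set 6 or 7), 0 to 1 in the cell type difference under AII+NA and under ALL (1 without WT set 1 or 3), and 1 to 2 for unstressed EC against WT VSMC (1 without WT set 3). The cause was not tested. Low counts limit Pygm, Pygl and Ppp1r3c in EC, whose lowest counts were 0, 6 and 21.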

Other observations

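Scarb2, whose pattern was most like that of Stbd1, is also a neighbour of it: it lies on the minus strand at chr5:92589169-92654692 on GRCm39, 96199 bases from Stbd1. It was singled out after its values were seen. Scarb2, a receptor that carries glucocerebrosidase to lysosomes, averaged 233 FPM in EC under Control, 355 FPM under HG+FFA and 352 FPM under ALL, with log2 fold changes of 0.59 ± 0.0835 (SE; edgeR FDR = 3.4e-05) and 0.57 ± 0.0834 (FDR = 4.73e-05) and 9 of 9 sets higher in both. In KO VSMC it was at 0.75 ± 0.128 under HG+FFA (FDR = 0.0155) and 0.77 ± 0.141 under ALL (FDR = 0.0254). In WT VSMC it was not called (0.37 ± 0.0977, FDR = 0.123 under HG+FFA, 0.25 ± 0.0978, FDR = 0.139 under ALL). Under AII+NA it was not called in any cell type. The other neighbours with enough counts for a test, Ccdc158, Shroom3, Nup54 and Art3, were not called under any stressor, and Fam47e was not tested.

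The members differed in how widely they varied between sets that received the same treatment. In EC, unstressed Pygl ran from 0.863 to 23.3 FPM and Gyg1 from 58.9 to 403 FPM, whereas Pygb ran from 137 to 278 FPM and Gys1 from 13.8 to 33.8 FPM. Sets 15 and 16, which were highest for Pygl among the Control libraries, were not highest for Gyg1, with 87.0 and 114 FPM.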
